A study of Mus musculus with 9 samples.

Results

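The genes described here encode solute carriers, the proteins that move amino acids, sugars, ions, metals, nucleosides and vitamins across cell and organelle membranes, together with a few proteins named after one. They were followed in C2C12 cells, a mouse myoblast line, by gene symbol: a gene was taken where a probe set had 1 annotated symbol beginning with Slc, a family number, the letter a and a member number, and where that probe set's log2 intensity averaged at least 7.385 (intensity 167.2) over all arrays. The rule left 146 of the 335 solute carrier genes on the array (43.6%), where 49.5% of all named genes passed (9862 of 19938), and 189 solute carrier genes lay below it. Members were thus selected on their intensity, so their levels are given as descriptions only. Just inside the threshold were Slc16a4 at 7.3864, Slc25a33 at 7.3881 and Slc15a3 at 7.3992, and just outside it Slc22a13 at 7.3849, Slc25a29 at 7.3633 and Slc25a47 at 7.3630. Of the 146 members, 142 are carriers from 41 families and 4 are only named after one: Slc9a3r1 and Slc9a3r2, scaffold proteins that bind a sodium-proton exchanger, and Slc4a1ap and Slc7a6os.

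The cells were given 1 of 3 siRNAs: a control, one that targets Cugbp1, now named Celf1, or one that targets Mbnl1. Actinomycin D was then added at 5 ug/ml, and total RNA was taken after 0, 2.5 and 5 h. Every combination of siRNA and time was hybridised once to an Affymetrix whole-transcript array, for 9 arrays with no replicates, so that each siRNA and each time has 3. All 9 share the cell line and, after 0 h, the drug. Time effects were therefore tested over the 3 siRNAs and siRNA effects over the 3 times, in limma with Benjamini-Hochberg adjustment over all 9862 genes, and "called" means an adjusted p under 0.05. The error of each difference is the siRNA-by-time variation the model leaves out, and p-values do not measure the spread between cultures. Values below are deposited RMA intensities, given in the order 0, 2.5 and 5 h, and differences are log2 ± SE. RMA fits all arrays to a common distribution, so a rise or fall is relative to the other transcripts. Celf1 stood at 30.9%, 22.1% and 21.6% of its control level under its siRNA and Mbnl1 at 22%, 18.3% and 15.9% under its own, while Celf1 was also at 72.4%, 65.4% and 61.5% under Mbnl1 siRNA. All 11 myoblast markers listed passed the intensity threshold, against 1 of 7 adipocyte, 1 of 9 macrophage and leukocyte, 2 of 6 osteoblast and chondrocyte and 0 of 6 endothelial markers on the array.

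CUGBP1 and MBNL1 are RNA-binding proteins that regulate splicing, stability and translation of muscle mRNAs. Actinomycin D stops transcription, so an mRNA that is lost quickly falls against the others, and one that outlasts them rises on this relative scale. In growing myoblasts solute carriers supply amino acids, of which glutamine and leucine uptake depend on sodium-coupled carriers and on heterodimers with the heavy chain Slc3a2; glucose through Slc2a1; lactate exchange through Slc16 carriers; zinc and iron balance through Slc30, Slc39 and Slc40; and the exchange of metabolites and ATP between cytosol and mitochondria through Slc25.

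By 5 h of actinomycin D, 34 solute carrier genes had fallen and 50 had risen, and 62 were not called. Of all genes 68.4% were called, 32.8% lower and 35.6% higher, so 34 of 146 is a smaller share than that of all genes for falls and 50 of 146 close to it for rises. The median difference was 0.05 among members and 0.04 among all genes. In the 3 siRNA arms singly, 2 members under control, 1 under Cugbp1 and 1 under Mbnl1 siRNA were at least 2-fold lower at 5 h, against 6.15%, 4.56% and 6.31% of all genes. The arrays at 0 and 5 h did not overlap for 39 members, where 44.2% of all genes did not. At 2.5 h 19 had fallen and 26 had risen, against 24.2% and 23.1% of all genes, and 22 members did not overlap between those times, against 30.4% of all genes. Without the control 2.5 h array the counts were 12 and 12, without the Cugbp1 2.5 h array 12 falls and 13 rises, and without the Mbnl1 2.5 h array 15 rises. These counts rest on RMA's scaling. With arrays scaled to equal medians of 54 ribosomal protein genes the median of all genes shifted by −0.23 at 5 h and −0.12 at 2.5 h, and the counts became 84 lower and 2 higher at 5 h, and 39 lower and 1 higher at 2.5 h. The plot of the 5 h difference by class of substrate shows most members near the median of all genes. The 9 falls of at least 0.5 were Slc38a2 and Slc3a2 among amino acid carriers, Slc30a6, Slc30a1 and Slc40a1 among metal carriers, and Slc29a2, Slc22a23, Slc25a44 and Slc4a1ap.

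**Figure D1:**
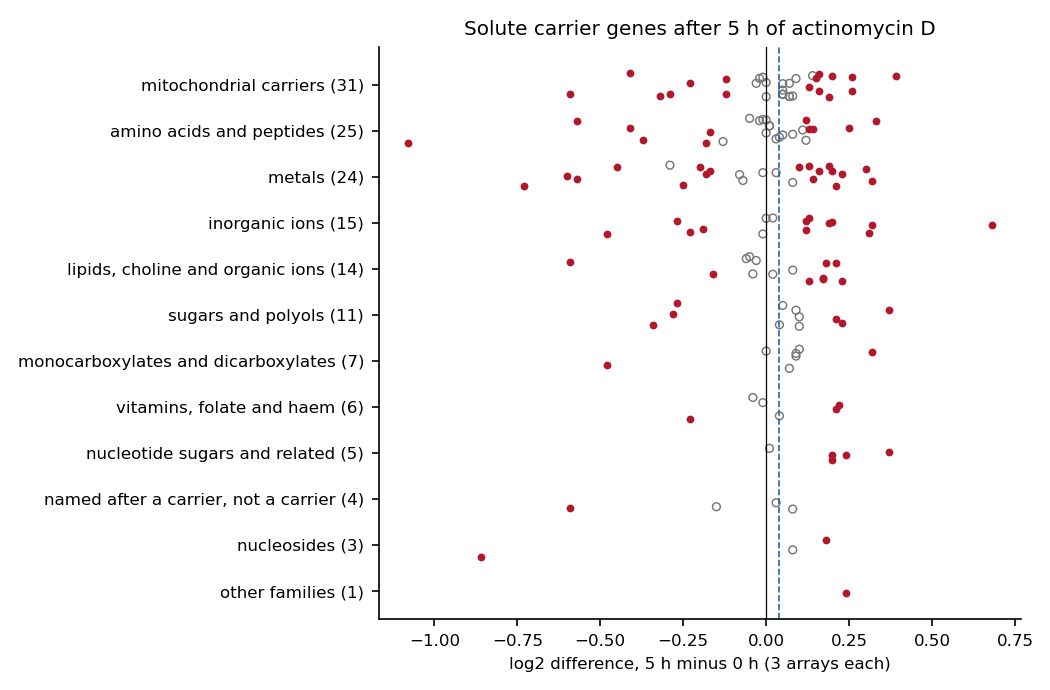
Log2 difference between 5 h and 0 h of actinomycin D for each of the 146 members, 1 point a gene, by class of substrate with the number of genes in parentheses. Filled red points passed the adjusted p of 0.05 and open points did not, the dashed line is the median of all genes (0.04), and Slc38a2 is the lowest point at −1.08 and Slc9a5 the highest at 0.68.

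The amino acid carriers held the largest fall. Slc38a2, the sodium-coupled neutral amino acid carrier SNAT2, gave intensities of 8331, 4984 and 3686 under control, 7980, 4630 and 3389 under Cugbp1 and 7464, 5240 and 4201 under Mbnl1 siRNA. Every 5 h array lay below every 0 h array, at 44.2% under control, 42.5% under Cugbp1 and 56.3% under Mbnl1 siRNA of the 0 h level. It fell by 1.08 ± 0.07 on the log2 scale (adjusted p = 6.78e-06), of which 0.68 ± 0.07 came by 2.5 h. Slc3a2, the heavy chain that carries several amino acid carriers to the surface, gave 7505, 5206 and 4317 under control, 8563, 6832 and 5938 under Cugbp1 and 10579, 9537 and 8078 under Mbnl1 siRNA. It was lower at 5 h than at 0 h in each arm, though the groups overlapped, with the Mbnl1 arm high throughout, and its difference was −0.57 ± 0.07 (adjusted p = 2.81e-04). Its light chain Slc7a5, which takes up leucine, gave 4304, 4389 and 4334 under control, 4779, 5147 and 4721 under Cugbp1 and 3576, 3863 and 3708 under Mbnl1 siRNA and differed by 0.01 ± 0.04, not called. Slc7a1, the arginine and lysine carrier, fell (−0.37 ± 0.04), as did Slc66a1, a lysosomal exporter of basic amino acids (−0.41 ± 0.05). Of the 25 amino acid and peptide carriers 6 fell and 5 rose. Classes follow the family number, so the 25 include Slc43a3, whose substrates are purine bases. The 4 Slc6 members were not called at 5 h and had a median of 0.00.

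Zinc carriers went both ways. Slc30a6, a Golgi zinc carrier, gave 798, 573 and 478 under control, 758, 556 and 462 under Cugbp1 and 688, 497 and 410 under Mbnl1 siRNA, with no overlap between 0 h and 5 h, and fell by 0.73 ± 0.03 (adjusted p = 8.51e-07). Slc30a1, the zinc exporter of the plasma membrane, gave 265, 211 and 173 under control, 265, 211 and 192 under Cugbp1 and 246, 153 and 150 under Mbnl1 siRNA and fell by 0.60 ± 0.07. Slc30a5, which works with Slc30a6 in the early secretory pathway, fell by 0.45 ± 0.04. The 3 falls among 7 Slc30 members stood beside 3 rises, of which Slc30a9 (0.30 ± 0.05) and Slc30a7 (0.21 ± 0.05) were named. Of the 10 Slc39 members, mostly zinc importers, 5 rose and 3 fell. Slc39a10 rose by 0.32 ± 0.06 and Slc39a11 by 0.20 ± 0.05, while Slc39a9 (−0.20 ± 0.05), Slc39a3 (−0.18 ± 0.04) and Slc39a6 (−0.17 ± 0.04) fell. With equal ribosomal protein medians Slc39a11 turned to −0.03 and Slc30a7 to −0.02. Slc40a1, the iron exporter ferroportin, fell by 0.57 ± 0.15, and its 5 h mean lay below the intensity threshold. Of the 24 metal carriers 8 fell and 10 rose. Of the 19 tested genes of metal handling outside the family, 6 fell and 8 rose, with a median of 0.09. Among the falls were the metal-sensing transcription factor Mtf1 at −0.59 ± 0.05 and the iron sensor Fbxl5 at −0.94 ± 0.06.

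The nucleoside carriers split. Slc29a2, an equilibrative nucleoside carrier, gave 741, 505 and 360 under control, 624, 423 and 324 under Cugbp1 and 552, 406 and 368 under Mbnl1 siRNA. Its arrays at 0, 2.5 and 5 h did not overlap, with 48.5% under control, 51.9% under Cugbp1 and 66.7% under Mbnl1 siRNA of the 0 h level left at 5 h, and it fell by 0.86 ± 0.08 (adjusted p = 4.32e-05). Its relative Slc29a1 rose by 0.18 ± 0.04 and turned to −0.05 with equal ribosomal protein medians. Slc2a1, the main glucose importer of proliferating cells, gave 9455, 8320 and 7227 under control, 9563, 8437 and 7549 under Cugbp1 and 11228, 10576 and 9122 under Mbnl1 siRNA, with every 5 h array below every 0 h array, and fell by 0.34 ± 0.04. The phosphate importer Slc20a1 fell by 0.48 ± 0.05 and its relative Slc20a2 by 0.27 ± 0.04. Slc16a13, a monocarboxylate carrier, fell by 0.48 ± 0.07, whereas the lactate carriers Slc16a1 (0.07 ± 0.04) and Slc16a3 (0.09 ± 0.07) were not called. Slc22a23, an orphan of the organic ion family, fell by 0.59 ± 0.09, and Slc4a1ap, which is not a carrier, by 0.59 ± 0.06.

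Of the 31 mitochondrial carriers 7 fell, 9 rose and 15 were not called. Slc25a44, a carrier of branched-chain amino acids, gave 1627, 1464 and 1172 under control, 1767, 1488 and 1207 under Cugbp1 and 2630, 2158 and 1580 under Mbnl1 siRNA, and fell by 0.59 ± 0.05 (adjusted p = 3.21e-05) with no overlap. Slc25a32, which brings folate into mitochondria, fell by 0.41 ± 0.06, and Slc25a28, an iron carrier, by 0.29 ± 0.06. The phosphate carrier Slc25a3 (0.05 ± 0.04) and the ATP/ADP exchanger Slc25a5 (0.08 ± 0.03), both among the brightest members, were not called. The exchanger Slc25a4 was called higher at 0.13 ± 0.04. Of the 34 members lower at 5 h, 19 were already called lower at 2.5 h, and 29 went on falling between 2.5 and 5 h in all 3 arms. No share of all genes stands beside these 2 counts. Choosing members low at 5 h also favours a further fall after 2.5 h, so the counts are descriptions only.

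**Figure D2:**
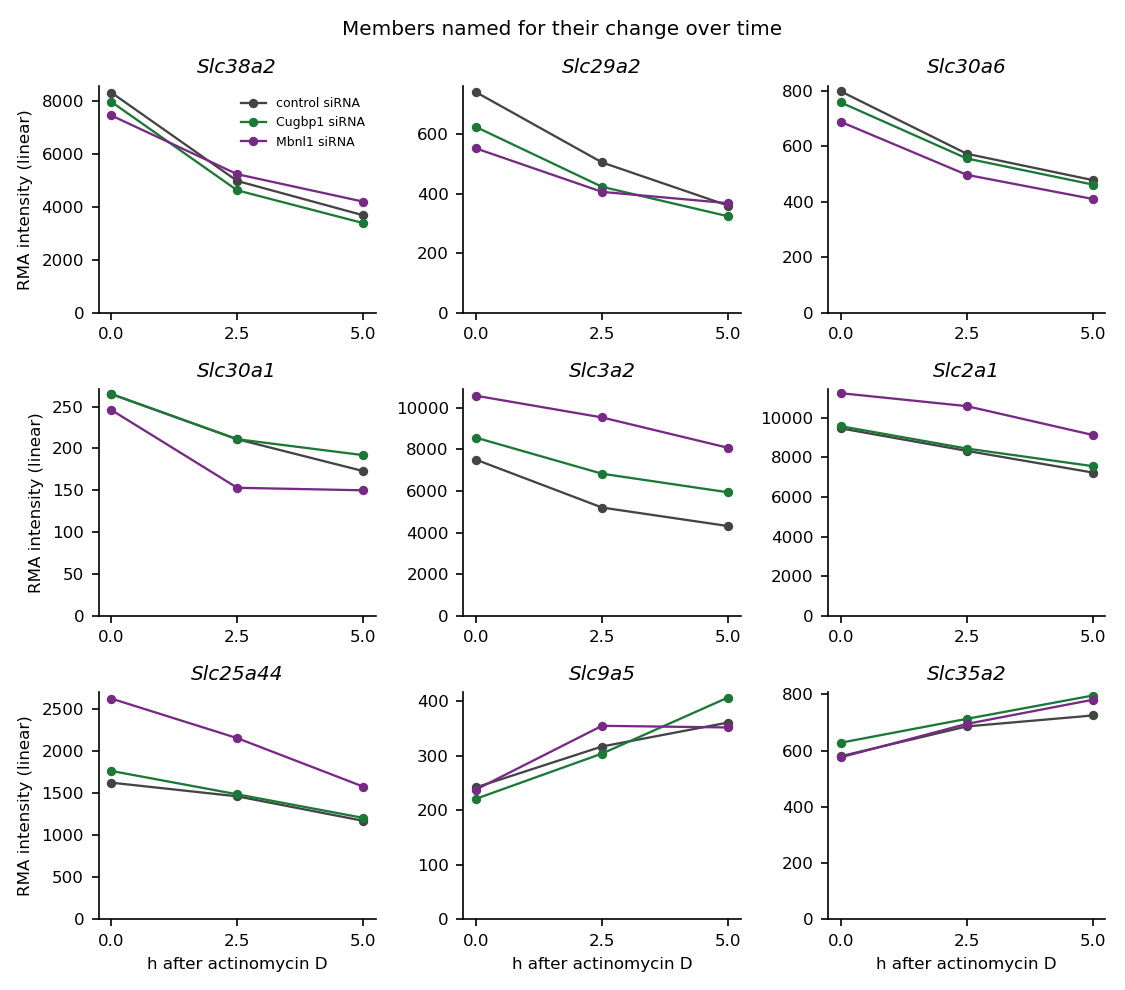
RMA intensity on a linear axis from 0 against hours of actinomycin D for 9 members, 1 array a point, with lines joining the arrays of 1 siRNA. Slc38a2 drops from between 7464 and 8331 at 0 h to between 3389 and 4201 at 5 h, while Slc9a5 goes up from between 221 and 242 to between 352 and 407.

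Among members 1 rose by at least 0.5 on the log2 scale (0.685%) and 9 fell by as much (6.16%), where 0.507% of all genes rose and 15.7% fell by that size. The member that rose was Slc9a5, a sodium-proton exchanger, with 242, 317 and 361 under control, 221, 304 and 407 under Cugbp1 and 238, 355 and 352 under Mbnl1 siRNA, all 5 h arrays above all 0 h arrays, and a rise of 0.68 ± 0.08 (adjusted p = 1.33e-04). Slc35a2, the UDP-galactose carrier of the Golgi, gave 580, 686 and 725 under control, 628, 713 and 796 under Cugbp1 and 576, 695 and 781 under Mbnl1 siRNA and rose by 0.37 ± 0.04, again without overlap. These were the 2 members still called higher at 5 h with equal ribosomal protein medians (0.45 and 0.14). The other rises lost their call or turned round under that scaling. Of the 5 Slc35 members 4 rose, with Slc35a1, the CMP-sialic acid carrier, at 0.24 ± 0.05. All 4 Slc4 members, which carry bicarbonate or related ions, were called higher: Slc4a8 by 0.32, Slc4a3 by 0.31, Slc4a2 by 0.13 and Slc4a11 by 0.12. With equal ribosomal protein medians these became 0.09, 0.08, −0.10 and −0.11. The sugar carrier Slc50a1 rose by 0.37 ± 0.05, the purine base carrier Slc43a3 by 0.33 ± 0.03 and Slc25a27, an uncoupling-protein relative, by 0.39 ± 0.10. Between 2.5 and 5 h, 16 members fell and 3 rose (of all genes 21.4% were called, 17% lower and 4.47% higher), and 15 did not overlap (16.6% of all genes), the rises being Slc25a39, Slc35a2 and Slc43a3. Falls numbered 5 without the Mbnl1 2.5 h array, 8 without either the control 2.5 h or control 5 h array and 9 without the Cugbp1 2.5 h array, and rises 0 without any 1 of the 2.5 h arrays or the Cugbp1 5 h array, and 1 without the control 0 h or Mbnl1 5 h array.

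Under Cugbp1 siRNA 35 solute carrier genes were higher and 17 lower than under control siRNA, where 19.2% of all genes were called, 10.5% higher and 8.67% lower. The arrays of the 2 siRNAs did not overlap for 51 members, against 16.2% of all genes. The higher count fell to 13 without the control 2.5 h or the Cugbp1 2.5 h array, to 19 without the control 0 h or control 5 h array and to 20 without the Cugbp1 5 h array. The lower count fell to 9 without the control 2.5 h or Cugbp1 2.5 h array, to 10 without the Cugbp1 5 h array and to 11 without the control 0 h, control 5 h or Cugbp1 0 h array. Under Mbnl1 siRNA 49 members were higher and 41 lower, where 55% of all genes were called, 24% higher and 31% lower, and 70 members did not overlap, against 34.9% of all genes. The higher counts and the counts without overlap include Slc25a33 and Slc40a1 under both siRNAs, and Slc16a4 under Mbnl1 siRNA. Their control means lay below the intensity threshold, so they passed through knockdown arrays. Their part in these counts is a description with no test. Both comparisons use the same 3 control arrays, so their values are given side by side.

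**Figure D3:**
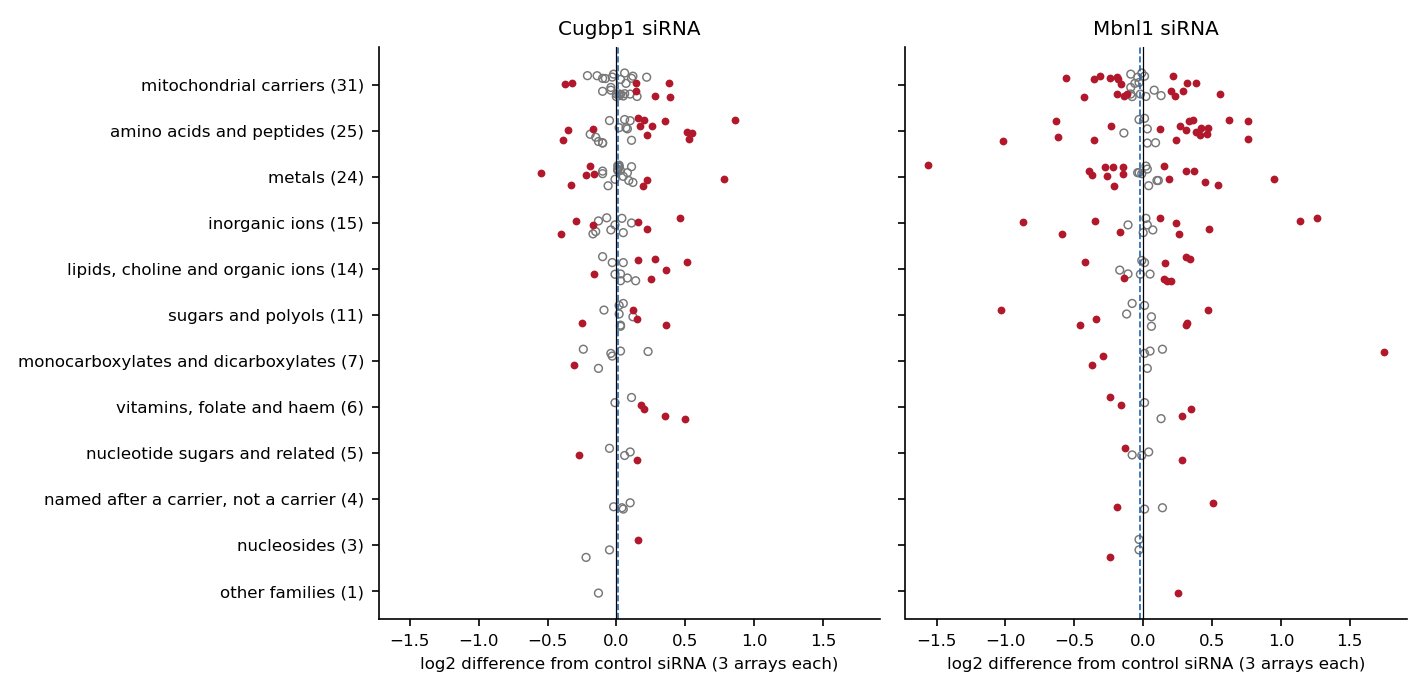
Log2 difference from control siRNA for each of the 146 members under Cugbp1 siRNA (left) and Mbnl1 siRNA (right), 1 point a gene, averaged over the 3 times, with filled red points called and the dashed line at the median of all genes. The widest differences are under Mbnl1 siRNA, from −1.56 for Slc41a1 to 1.75 for Slc16a4, which passed the threshold only through its Mbnl1 arrays, and both panels share the control arrays.

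Among amino acid carriers, 10 of 25 were higher and 3 lower under Cugbp1 siRNA, and 14 higher and 5 lower under Mbnl1 siRNA. Slc7a11, the cystine-glutamate exchanger that feeds glutathione synthesis, gave 862, 981 and 987 under control, 1624, 1733 and 1773 under Cugbp1 and 1190, 1209 and 1222 under Mbnl1 siRNA. No array of either knockdown overlapped the controls, and it was higher by 0.86 ± 0.04 (adjusted p = 4.22e-05) and 0.36 ± 0.04 (adjusted p = 2.25e-04). Its heavy chain Slc3a2, with the intensities given above, was higher by 0.35 ± 0.07 and 0.76 ± 0.07. Slc6a9, a glycine carrier, gave 1891, 2079 and 2064 under control, 2902, 2985 and 2845 under Cugbp1 and 3371, 3480 and 3384 under Mbnl1 siRNA, again with no overlap, and was higher by 0.53 ± 0.04 and 0.76 ± 0.04. All 4 Slc6 members were higher under Cugbp1 siRNA and 3 of 4 under Mbnl1 siRNA, with the taurine carrier Slc6a6 at 0.26 and 0.27 and Slc6a17 at 0.20 and 0.62. Slc6a8, the creatine carrier, was higher under Cugbp1 siRNA (0.16 ± 0.04) and stood at 0.01 ± 0.04 under Mbnl1 siRNA, not called. Slc1a4, a serine and alanine carrier, was higher under both (0.51 and 0.38). Slc36a1, a lysosomal amino acid exporter, was higher under Cugbp1 siRNA (0.55 ± 0.13) and not called under Mbnl1 siRNA (−0.14 ± 0.13).

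Of 20 tested genes of the amino acid response outside the family, 8 were higher and 0 lower under Cugbp1 siRNA and 12 higher and 0 lower under Mbnl1 siRNA, in limma, with list medians of 0.17 and 0.22 against 0.01 and −0.02 over all genes. They included Asns, asparagine synthetase (0.26 ± 0.04 and 0.35 ± 0.04), and Ddit4, an inhibitor of mTORC1 (0.46 ± 0.06 and 0.53 ± 0.06). Atf4, the factor that drives this response at the level of its translation, was at 0.10 ± 0.05 and 0.11 ± 0.05, not called in either. The C/EBP-ATF response element, through which ATF4 acts, has the core TGATGNAA, searched on both strands. Of 32851 RefSeq promoters on GRCm38.p6, each from 250 bases before to 50 after an annotated start, 3.97% held it, and of 150 promoters of the 116 members with an entry, 5 did (3.33%). They belonged to Slc7a11, Slc1a4 and Slc49a4, which were higher under both siRNAs, and to Slc50a1 and Slc9a9, which were lower under Mbnl1 siRNA. Slc9a9 was called higher under Cugbp1 siRNA (0.16). The 4 windows of 100 bases that end before the annotated start are printed 5′ to 3′ on the gene's strand to show where the letters fall, with each match in capitals. They lie at chr3:50443626-50443725, minus strand, chr16:35769520-35769619, minus strand, chr3:89270706-89270805, minus strand and chr9:94669777-94669876, plus strand.
Slc7a11: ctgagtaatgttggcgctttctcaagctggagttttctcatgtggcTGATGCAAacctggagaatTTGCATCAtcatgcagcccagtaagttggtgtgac
Slc49a4: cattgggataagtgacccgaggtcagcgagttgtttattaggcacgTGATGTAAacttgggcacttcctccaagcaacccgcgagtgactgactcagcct
Slc50a1: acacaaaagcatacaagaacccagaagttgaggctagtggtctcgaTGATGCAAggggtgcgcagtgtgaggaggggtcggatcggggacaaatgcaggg
Slc9a9: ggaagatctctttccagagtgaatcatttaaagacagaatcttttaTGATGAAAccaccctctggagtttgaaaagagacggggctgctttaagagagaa
Slc7a11 alone of the 5 had 2 matches. Also searched on both strands were the E-box CACGTG, in 16% of member promoters and 7.15% of all, the hypoxia response core ACGTG, which every E-box match contains (30% and 19.6%), the metal response cores TGCACNC and TGCGCNC (36.7% and 25.7%), and the antioxidant response core TGACNNNGC (18.7% and 12.4%) with a form 1 unspecified base longer (15.3% and 14.3%). These shares are descriptions, base composition was not matched, and no binding was measured here.

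Metal carriers included the largest decrease under Mbnl1 siRNA. Slc41a1, a magnesium carrier, gave 680, 650 and 616 under control, 649, 687 and 639 under Cugbp1 and 300, 191 and 186 under Mbnl1 siRNA. The 3 Mbnl1 arrays lay far below the other 6, at −1.56 ± 0.13 (adjusted p = 3.96e-05), while under Cugbp1 siRNA the difference was 0.02 ± 0.13, not called. Its relative Slc41a2 showed the other order, −0.55 ± 0.07 under Cugbp1 siRNA and −0.04 ± 0.07, not called, under Mbnl1 siRNA. Slc40a1, ferroportin, gave 146, 118 and 115 under control, 229, 232 and 190 under Cugbp1 and 356, 242 and 166 under Mbnl1 siRNA and was higher by 0.78 ± 0.15 and 0.95 ± 0.15. Its control mean lay below the intensity threshold, so it passed through the knockdown arms, and these 2 differences are descriptions with no test. Of the 19 metal handling genes outside the family 3 were higher and 4 lower under Cugbp1 siRNA, and 7 higher and 5 lower under Mbnl1 siRNA, with medians of 0.03 and −0.01. Hmox1, which releases iron from haem, was at 1.27 ± 0.09 and 0.81 ± 0.09. The copper carrier Slc31a2 was lower under Cugbp1 siRNA (−0.33 ± 0.07) and higher under Mbnl1 siRNA (0.54 ± 0.07). Of 7 Slc30 members 4 were lower and 1 higher under Mbnl1 siRNA, among them Slc30a4 (−0.37) and Slc30a1 (−0.26), while the zinc-binding metallothioneins Mt1 (0.51 ± 0.05) and Mt2 (0.54 ± 0.04) were higher and the iron sensor Fbxl5 (−0.35 ± 0.06) and the transferrin receptor Tfrc (−0.21 ± 0.06) lower.

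Several ion carriers differed under Mbnl1 siRNA. The monocarboxylate carrier Slc16a4 gave 102, 95.6 and 122 under control, 104, 137 and 133 under Cugbp1 and 312, 363 and 399 under Mbnl1 siRNA, a difference of 1.75 ± 0.08. It passed the threshold only through its Mbnl1 arrays, so it had to differ, and its value is a description with no test. Slc9a2, a sodium-proton exchanger, gave 546, 490 and 507 under control, 707, 707 and 712 under Cugbp1 and 1184, 1193 and 1311 under Mbnl1 siRNA, with 3 ranges that did not overlap, and was higher by 0.46 ± 0.05 and 1.26 ± 0.05. Slc4a11 gave 356, 377 and 377 under control, 294, 298 and 317 under Cugbp1 and 754, 853 and 849 under Mbnl1 siRNA and was lower under Cugbp1 siRNA (−0.29 ± 0.04) but higher under Mbnl1 siRNA (1.14 ± 0.04). The endosomal exchanger Slc9a9 was lower by 0.87 under Mbnl1 siRNA but called higher under Cugbp1 siRNA (0.16). The Golgi exchanger Slc9a8 was lower under both (−0.40 and −0.59). The lactate exporter Slc16a3 was lower under Mbnl1 siRNA (−0.29 ± 0.07), and the lactate carrier Slc16a1 was called under neither.

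**Figure D4:**
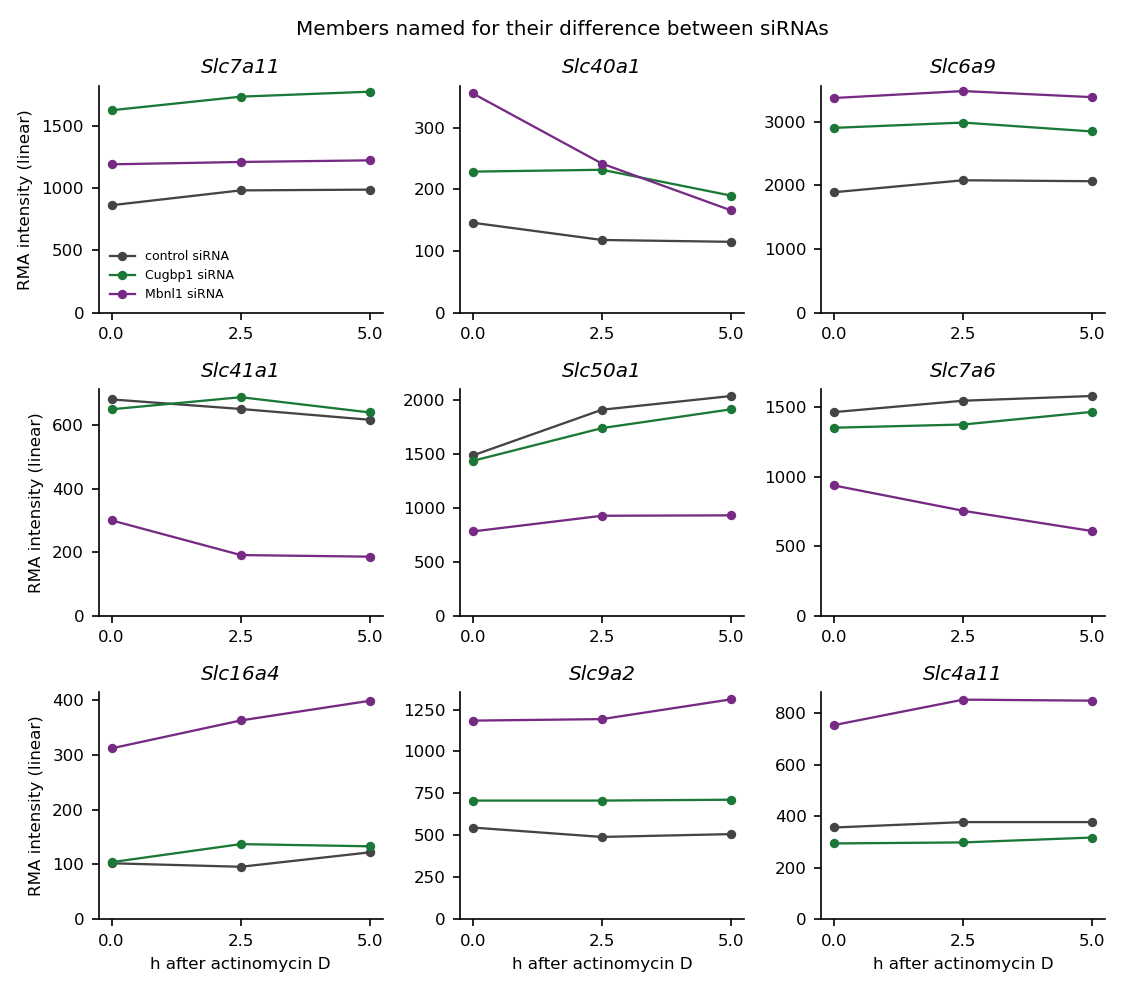
RMA intensity on a linear axis from 0 against hours of actinomycin D for 9 members, 1 array a point, with lines joining the arrays of 1 siRNA. Slc41a1 lies between 186 and 300 under Mbnl1 siRNA and between 616 and 687 on the other arrays, and Slc9a2 between 1184 and 1311 against 490 to 712.

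Sugar and mitochondrial carriers included both decreases and increases under Mbnl1 siRNA. Slc50a1, a sugar carrier of the SWEET family, gave 1484, 1907 and 2034 under control, 1434, 1737 and 1911 under Cugbp1 and 781, 926 and 930 under Mbnl1 siRNA and was lower by 1.03 ± 0.05 on the log2 scale, without overlap. Slc7a6, a light chain for basic and neutral amino acids, gave 1464, 1546 and 1580 under control, 1352, 1375 and 1466 under Cugbp1 and 937, 755 and 609 under Mbnl1 siRNA and differed by −1.02 ± 0.13, while the glucose importer Slc2a1 was higher (0.31 ± 0.04). Slc25a1, the mitochondrial citrate exporter, was lower (−0.56 ± 0.10) and Slc25a44 higher (0.56 ± 0.05). Slc43a3 (−0.63) and the lysosomal amino acid carrier Slc36a4 (−0.62) were lower. Of the 31 mitochondrial carriers 11 were lower and 7 higher under Mbnl1 siRNA, where 31% and 24% of all genes were. Under Cugbp1 siRNA 2 were lower and 5 higher, where 8.67% and 10.5% of all genes were. Both higher counts include Slc25a33, which passed the intensity threshold through its knockdown arrays. Of the 6 members classed by family number as vitamin and haem carriers, 4 were higher under Cugbp1 siRNA. The largest rise was that of the thiamine carrier Slc19a2 at 0.50 ± 0.08. Slc5a6, placed with the sugar carriers by its family number, is not among the 6 and was called higher under both siRNAs. Cd68, a lysosomal protein that also marks macrophages, was at 1.15 ± 0.04 and Myod1, a myoblast factor, at −0.58 ± 0.05 under Mbnl1 siRNA. Of the 11 myoblast markers 2 were higher and 3 lower, with a median of −0.05. The part of these markers in these differences was not tested.

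Set against each other directly, Mbnl1 and Cugbp1 siRNA differed in 97 members, 47 higher and 50 lower under Mbnl1 siRNA (of all genes 56.4% were called, 23% higher and 33.4% lower). For 76 members these arrays did not overlap, against 35.2% of all genes. Both the 47 and the 76 include Slc16a4, which passed the threshold only through its Mbnl1 arrays. Members called in no time or siRNA comparison with control or 0 h included Slc11a2, an iron importer, Slc12a2, the sodium-potassium-chloride carrier, and Slc16a1. For Slc38a9, the lysosomal arginine sensor, a second and dimmer probe set gave −0.03 under Cugbp1 siRNA where the first gave −0.35. For Slc44a1, a choline carrier, 2 probe sets gave 0.17 and 0.48 at 5 h.

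Decay itself was compared as a difference in hourly slope between each knockdown and the control. No member was called under either siRNA in limma, against 0% of all genes under Cugbp1 siRNA and 0.0203% under Mbnl1 siRNA. The nearest were under Mbnl1 siRNA. Slc7a6 had a slope difference of −0.146 ± 0.017 log2 per h relative to control (95% interval −0.186 to −0.106, adjusted p = 0.0511), with 65% of its 0 h level at 5 h under Mbnl1 siRNA and 108% under control. Slc36a1 had a slope difference of −0.143 ± 0.016 (adjusted p = 0.0511), with 720, 638 and 509 under Mbnl1 and 627, 686 and 727 under control siRNA. Its level went down with time in 1 arm and up in the other. Slc40a1 stood at −0.152 ± 0.030 (adjusted p = 0.127), and Slc29a2 at 0.092 ± 0.019 (adjusted p = 0.132). With equal medians of 54 ribosomal protein genes Slc7a6, Slc36a1 and Slc40a1 passed (adjusted p = 0.00771, 0.00764 and 0.0126 in limma). With Rpl7l1 added to that scaling, Slc7a6 and Slc36a1 were both at an adjusted p of 0.0466 in limma, and Slc40a1 did not pass. Without the Mbnl1 2.5 h array 4 members were called, among them Slc7a6 and Slc36a1 (both adjusted p = 0.0142 in limma). Their slope differences there were the same −0.146 and −0.143. The estimates did not change, so passing without that array adds no separate support. Under Cugbp1 siRNA the furthest were Slc19a2 at 0.095 ± 0.017 (adjusted p = 0.319), Slc31a2 at −0.086 ± 0.016 and Slc25a27 at 0.081 ± 0.017. The plot of slopes shows these with their intervals.

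**Figure D5:**
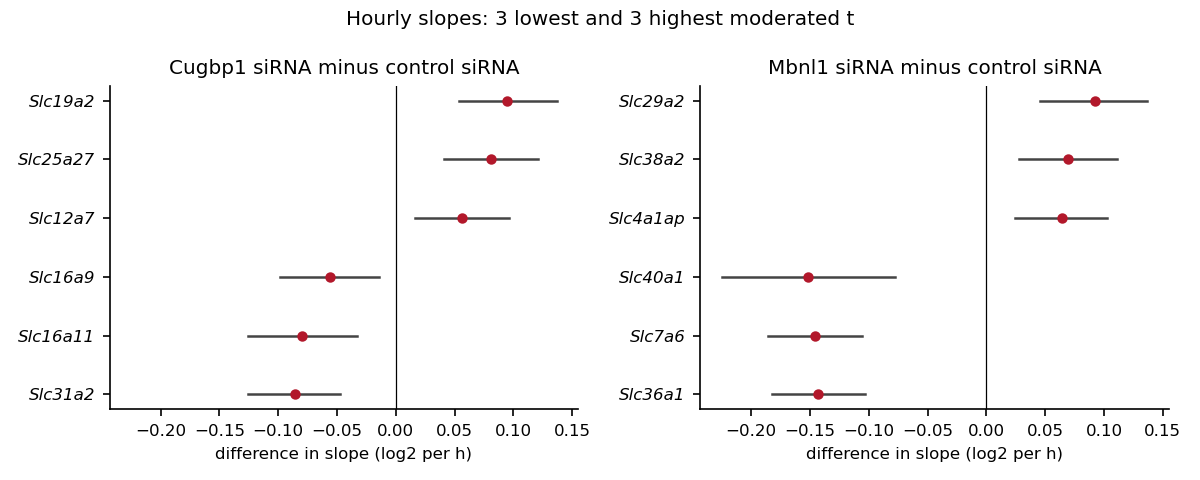
Difference in hourly slope (log2 per h) from control siRNA for the 3 members with the lowest and the 3 with the highest moderated t under each siRNA, as points with 95% intervals. No member passed the adjusted threshold, and Slc7a6 (−0.146) and Slc36a1 (−0.143) under Mbnl1 siRNA came nearest.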

How the data were processed

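Total RNA of C2C12 cells was measured on 9 Affymetrix whole-transcript arrays, 1 for each of 3 siRNAs and 3 times. Per the submitters' processing notes, the authors made the values with RMA in Affymetrix Expression Console, with no version named. Judged by their range, the values deposited are linear RMA intensity, and log2 was taken here. Array medians lay between 104.9 and 113.

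The table has 35556 probe sets: 21789 with 1 symbol, 1621 with several and 12146 with none. The probe set with the highest mean stood for a gene (11 members have more than 1), and 9862 genes passed 7.385. limma 3.58.1 (R 4.3.3; lmFit, eBayes) fitted siRNA and time as factors, with 4 residual degrees of freedom, and, for slopes, a line in hours per knockdown, with 2. p-values were adjusted by Benjamini-Hochberg over all 9862 genes. The fits were tested on simulated data. The members, classes, gene lists, tests and alternatives were chosen with earlier results of these data known.

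A rule chose which members to name. For every comparison it took the 10 largest called rises and falls with 1 direction in all array pairs; the 2 largest called changes of each class; for slopes, the 3 highest and 3 lowest t; and a fixed list of well-known carriers. The text prints most of them. Alternatives were scaling to equal ribosomal protein medians, no filter, the 75th percentile as filter, the mean of a gene's probe sets, a trended robust variance, only the groups compared, and leaving out each array. The ribosomal scaling first took in Rpl7l1, a paralog that the written rule for cytosolic ribosomal proteins leaves out. It was dropped after the results had been seen, which changed counts, so both versions, of 54 and 55 genes, are reported.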

Additional observations from a re-analysis of the deposited data

Results flagged for a closer look

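In limma 14 solute carrier genes (9.59%) were called in opposite directions under the 2 siRNAs, where 3.72% of all genes were. Both differences use the same control arrays. The calls under Cugbp1 siRNA depend on single arrays: leaving out 1 gave 13 to 34 members higher and 9 to 21 lower. How many of the 14 keep both calls then was not tested. For Slc48a1, Slc5a3, Slc7a1 and Slc9a9 the Cugbp1 arrays overlapped the control arrays. The Mbnl1 arrays overlapped the control arrays for Slc1a5, Slc22a23, Slc48a1 and Slc7a1. The direct log2 difference between Mbnl1 and Cugbp1 siRNA, given first for each gene, follows from the 2 calls that chose these genes and adds no support to them. Higher under Mbnl1 siRNA were Slc1a5 (0.29, from −0.17 under Cugbp1 and 0.12 under Mbnl1 siRNA), Slc25a43 (0.70, from −0.32 under Cugbp1 and 0.38 under Mbnl1 siRNA), Slc2a6 (0.56, from −0.25 under Cugbp1 and 0.32 under Mbnl1 siRNA) and Slc31a2 (0.87, from −0.33 under Cugbp1 and 0.54 under Mbnl1 siRNA). The same held for Slc38a9 (0.65, from −0.35 under Cugbp1 and 0.31 under Mbnl1 siRNA), Slc4a11 (1.43, from −0.29 under Cugbp1 and 1.14 under Mbnl1 siRNA) and Slc7a1 (0.63, from −0.39 under Cugbp1 and 0.24 under Mbnl1 siRNA). Lower under Mbnl1 siRNA were Slc22a23 (−0.93, from 0.51 under Cugbp1 and −0.42 under Mbnl1 siRNA), Slc25a36 (−0.82, from 0.39 under Cugbp1 and −0.43 under Mbnl1 siRNA), Slc37a2 (−0.82, from 0.36 under Cugbp1 and −0.46 under Mbnl1 siRNA) and Slc48a1 (−0.34, from 0.18 under Cugbp1 and −0.16 under Mbnl1 siRNA). The same held for Slc5a3 (−0.49, from 0.15 under Cugbp1 and −0.34 under Mbnl1 siRNA), Slc7a5 (−0.39, from 0.17 under Cugbp1 and −0.23 under Mbnl1 siRNA) and Slc9a9 (−1.03, from 0.16 under Cugbp1 and −0.87 under Mbnl1 siRNA). They include both lysosomal and plasma membrane amino acid carriers, Slc38a9, Slc7a1, Slc7a5 and Slc1a5. The second probe set of Slc38a9 gave −0.03 and 0.18 against control. The mean of Slc37a2 under Mbnl1 siRNA lay below the intensity threshold.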

How the results depend on the processing

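No paired analysis was possible because each siRNA and time has 1 array and so no replicate numbers to pair, though siRNA and time enter every fit together. With equal medians of 54 ribosomal protein genes, called members were 1 higher and 39 lower at 2.5 h, 2 and 84 at 5 h, and 0 and 44 between 2.5 and 5 h, with 3 slopes under Mbnl1 siRNA. With Rpl7l1 added, as it was before the results were seen, they were 2 and 44, 4 and 89, 0 and 47, and 2 slopes. The version of 54 genes was thus the one chosen after seeing the data. Between these 2 versions the rises held at 5 h went from 2 to 4. Of the 50 members called higher at 5 h, 33 were below 0 under the first version given here, of 54 genes, and 34 under the second, with Rpl7l1. Among the members named by rule for that comparison, and with a call under either scaling, the direction turned under the first and second version for Slc29a1 (−0.05 and −0.05), Slc48a1 (−0.01 and −0.01), Slc7a5 (−0.22 and −0.22), Slc7a11 (−0.11 and −0.11), Slc1a5 (−0.10 and −0.10), Slc16a1 (−0.16 and −0.16), Slc39a14 (−0.13 and −0.13), Slc25a3 (−0.18 and −0.18), Slc25a4 (−0.10 and −0.11), Slc25a5 (−0.15 and −0.15) and Slc6a6 (−0.22 and −0.22). Without a filter there were 13 rises at 2.5 h, 0 rises and 8 falls between 2.5 and 5 h, and 16 higher and 9 lower under Cugbp1 siRNA. The stricter filter, which tests fewer members, left 11 falls at 2.5 h, 29 rises and 21 falls at 5 h, 28 higher under Mbnl1 siRNA, 63 that differ between the siRNAs, and 2 slopes under Mbnl1 siRNA. The trended robust variance gave 6 late rises and 8 slopes under Mbnl1 siRNA, and only the groups compared gave 2 late rises. The mean of probe sets gave 2 slopes. Leaving out 1 array gave 12 to 32 rises and 12 to 22 falls at 2.5 h, 0 to 3 rises and 5 to 17 falls between 2.5 and 5 h, 13 to 34 higher and 9 to 21 lower under Cugbp1 siRNA, and 0 to 4 slopes under Mbnl1 siRNA. The cause of these shifts was not tested. Counts at 5 h and under Mbnl1 siRNA stayed within 1.5 times when any 1 array was left out. With 1 array per group, differences between cultures are not measured.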

Other observations

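Solute carrier genes below the intensity threshold were tested without the filter. Of these 189, 17 were called higher and 3 lower under Mbnl1 siRNA in limma (8.99% and 1.59%). Over all 19938 genes the shares were 11.9% and 13.7%. Those include the 9862 genes above the threshold, so the sets differ in intensity and their shares are not directly comparable. All genes below the threshold were not counted on their own. Slc6a4, the serotonin carrier, ranged from 64.7 to 304 and was higher by 1.97 ± 0.07, more than any member. Slc18a1, a vesicular monoamine carrier, was higher by 0.92 ± 0.06 and Slc4a10, a bicarbonate carrier, by 0.81 ± 0.05. Slc25a25, a mitochondrial ATP-magnesium carrier, was at −0.73 ± 0.10 at 5 h.

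Another 14 solute carrier genes passed the threshold but carry other subfamily letters. Slc35c1, the GDP-fucose carrier, fell by 1.51 ± 0.07 at 5 h, more than any member, and Slc35e4 by 0.86 ± 0.05. Slc35b4, a nucleotide sugar carrier, was at −1.16 ± 0.09 under Mbnl1 siRNA.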
